A study of Mus musculus with 8 samples.

Results

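Endoplasmic reticulum (ER) stress genes were followed in mouse Peyer's patches (lymphoid tissue of the small intestine) after gavage with saline or with ovalbumin (OVA), a protein of egg white. The 10 genes were Hspa5, Hsp90b1, Pdia4, Dnajb9, Edem1, Sdf2l1, Creld2, Ddit3, Atf4 and Herpud1, chosen by name from the unfolded protein response, out of 18194 genes that the array annotation names. They were read by 19 probe sets that name 1 of them alone, and 17 of these passed the intensity filter, so that each of the 10 genes had at least 1 probe set in the test. Where several probe sets passed, the brightest stood for the gene. The filter lay at an intensity of 11.9, the median of all probe sets.

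The series compared 6 OVA mice with 2 controls of the inbred strain C3H/Hej, which carries a loss-of-function mutation of the endotoxin receptor Tlr4. Gavage began at 6 weeks of age and lasted 28 days. OVA mice received 40 mg/kg body weight each day, and controls the saline vehicle alone. Each sex had a lone control, numbered 7 in females and 8 in males. OVA was given to 2 females, numbered 2 and 12, and to 4 males, numbered 1, 5, 8 and 13. Total RNA of each sample was read on its own single-colour Affymetrix array. With so few arrays the precision is low throughout.

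The ER folds and modifies secreted and membrane proteins. When unfolded proteins build up in its lumen, the sensors ATF6, IRE1 and PERK start the unfolded protein response. ATF6 and the transcription factor XBP1, made active by IRE1, raise chaperones and the machinery that degrades misfolded proteins, while PERK slows translation and favours the transcription factor ATF4. In the gut this response is known from cells with a heavy secretory load, such as plasma cells, goblet cells and Paneth cells.

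Among the 10 genes, Hspa5 (BiP) and Hsp90b1 encode the main chaperones of the ER lumen, and Pdia4 a protein disulfide isomerase. Dnajb9 and Sdf2l1 encode partners of BiP, and Creld2 a stress-inducible protein of the ER. Edem1 and Herpud1 act in ER-associated degradation, in which Edem1 handles misfolded glycoproteins. Atf4 and its target Ddit3 (CHOP) encode transcription factors of the PERK arm, of which CHOP is tied to cell death under lasting stress.

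The ATF6 and XBP1 response runs through short promoter elements, and 4 of the 10 promoters are shown because they hold such an element letter for letter. The sequences are the RefSeq promoters of build GRCm38.p6, read on the strand of the gene, with position -1 just before the annotated start. Capitals mark the matches.
Hspa5, chr2:34771970-34772089 (+ strand), positions -120 to -1: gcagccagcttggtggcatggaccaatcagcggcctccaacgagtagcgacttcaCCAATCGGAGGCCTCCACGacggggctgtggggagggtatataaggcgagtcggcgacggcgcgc
Hsp90b1, chr10:86705525-86705664 (- strand), positions -220 to -81: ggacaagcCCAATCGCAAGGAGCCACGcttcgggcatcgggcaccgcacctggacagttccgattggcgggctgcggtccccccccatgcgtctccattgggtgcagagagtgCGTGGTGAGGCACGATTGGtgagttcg
Creld2, chr15:88819496-88819565 (+ strand), positions -150 to -81: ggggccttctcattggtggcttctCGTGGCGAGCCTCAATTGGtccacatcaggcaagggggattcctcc
Herpud1, chr8:94386299-94386398 (+ strand), positions -130 to -31: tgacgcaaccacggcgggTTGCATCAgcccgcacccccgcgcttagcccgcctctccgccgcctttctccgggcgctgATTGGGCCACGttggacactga

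The ER stress element (ERSE, 19 letters: CCAAT, 9 bases of any kind, CCACG) was searched on both strands of the 250 bases before each start. It was present in 37 of 32851 mouse promoters (0.113%), and in 3 of the 10 here. In Hspa5 it lay at -65 to -47, in Hsp90b1 at -212 to -194 and, on the opposite strand, at -107 to -89, and in Creld2 on the opposite strand at -126 to -108. ERSE-II (ATTGG, any base, CCACG) was present in 10 promoters (0.0304%), among them Herpud1 at -52 to -42. A C/EBP-ATF composite site of the kind ATF4 binds (TTGCATCA) was present in 260 promoters (0.791%), and Herpud1 alone of the 10 held it, at -112 to -105. The unfolded protein response element (UPRE, TGACGTGG) was present in 185 promoters (0.563%) and in 0 of the 10. None of these matches overlapped another. A match describes letters in this window and no binding.

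The 2 to 98% trimmed mean of the deposited values ran from 65.1 to 68.2 over the arrays. Scaling before deposit can make such means alike, so they do not show whether an array stood apart in brightness. Of the listed marker genes with a probe set, all 14 of B cells, all 12 of plasma cells, all 12 of goblet cells, all 7 of Paneth cells and all 14 of enterocytes passed the filter, against 4 of 11 of neurons and glia. Peyer's patches are the labelled tissue, although their extraction text speaks of brain cortex of a patient. Exocrine pancreas genes, of a tissue itself rich in ER, summed to 11876 in male OVA 13 and to between 410.5 and 1288 on the other 7 arrays. In whole patches, fewer cells of a type and less RNA per cell cannot be told apart.

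OVA mice were first compared with controls in an additive limma fit of treatment and sex, to find which transcripts differ after repeated oral antigen. None of the 10 genes passed (adjusted p = 0.389 to 0.941), in a comparison that called 0 of 22518 probe sets (0%). An unadjusted p under 0.05 was reached by 2 of the 10, Edem1 and Hsp90b1, against 1224 of 11988 genes (10.2%). The fitted log2 difference was above 0 for 7 and below 0 for 3 of them, with a median of 0.08, beside 6433 of 11988 genes (53.7%) above 0 and a median of 0.02. Neither the chaperones nor the degradation genes lay on 1 side, while the transcription factors Atf4 and Ddit3 lay slightly above 0 (0.05 and 0.03).

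Edem1, which draws misfolded glycoproteins towards degradation, stood lower on every OVA array than on either control. Its intensity was 407 in the female control and 464 in the male one. It was 334 and 323 in female OVA 2 and 12, and 376, 379.6, 338 and 381 in male OVA 1, 5, 8 and 13. The groups did not overlap, as for 4.65% of all genes in this direction. Controls averaged 435 ± 39.9 (SD, n = 2) and OVA mice 355 ± 26.2 (SD, n = 6), and the log2 difference was -0.32 ± 0.09 (SE; 95% interval -0.53 to -0.10; unadjusted p = 0.00865, adjusted p = 0.389 with limma). It was -0.30 within females and -0.33 within males. A second probe set of Edem1 gave -0.11 ± 0.09 (SE), with 2 of 6 OVA arrays below both controls.

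Hsp90b1, the ER form of the Hsp90 chaperones, and Sdf2l1, which binds BiP's DnaJ partners, stood higher on every OVA array than on either control. Hsp90b1 read 891 and 801 in the female and male control, 987 and 925 in female OVA 2 and 12, and 1073, 1089, 978 and 1039 in male OVA 1, 5, 8 and 13. Sdf2l1 read 278 and 277 in the controls, 296 and 294 in the female OVA mice, and 349, 336, 324 and 302 in the male OVA mice. Neither gene's groups overlapped, which held in this direction for 7.99% of all genes. The log2 difference was 0.25 ± 0.10 (SE; 95% interval 0.01 to 0.49; unadjusted p = 0.0397, adjusted p = 0.428) for Hsp90b1 and 0.17 ± 0.10 (SE; 95% interval -0.06 to 0.39; adjusted p = 0.526) for Sdf2l1, both from limma. The lone controls weighed on both sizes: Hsp90b1 stood at 0.10 within females and 0.38 within males, and Sdf2l1 at 0.083 and 0.24. The second probe set of Hsp90b1 had 0.18 ± 0.20 (SE), and only 3 of 6 OVA arrays lay above both controls there. Sdf2l1 had no second probe set.

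The remaining 7 genes overlapped between OVA and control. BiP, the gene product that binds and restrains the stress sensors, is encoded by Hspa5, whose intensity averaged 2022 ± 26.1 over controls (SD, n = 2) and 1987 ± 255 over OVA mice (SD, n = 6). The log2 difference was -0.07 for Hspa5, with a 95% interval from -0.34 to 0.20, and its 2 other probe sets gave 0.08 and 0.01. Pdia4 was at -0.20 (interval -0.49 to 0.09), Dnajb9 at 0.12 (-0.44 to 0.68), Creld2 at 0.18 (-0.20 to 0.55) and Herpud1 at 0.10 (-0.27 to 0.47). In the PERK arm, Atf4 was at 0.05 (-0.22 to 0.33) and Ddit3 at 0.03 (-0.29 to 0.35). With quantile normalization Ddit3 turned to -0.0022. These intervals are not adjusted for the number of probe sets. Their lower and upper limits, widest for Dnajb9, bound the differences that the values allow, and they are no limit of detection.

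**Figure D1:**
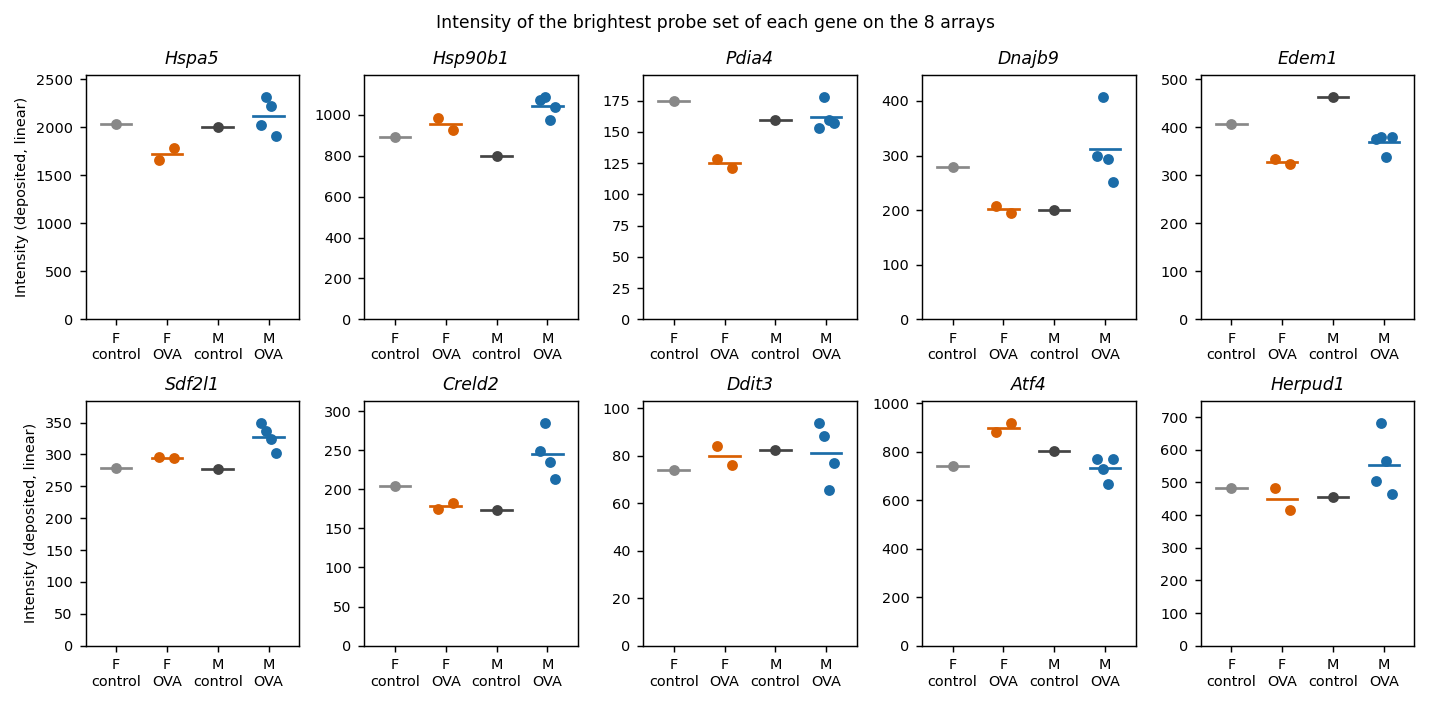
Intensity of the brightest probe set of each of the 10 genes (vertical axis, linear deposited values from 0), by group on the horizontal axis (F, female; M, male; 1 female control, 2 female OVA, 1 male control and 4 male OVA arrays). Points are arrays and lines are group means. Edem1 lies lower on all OVA arrays than on both controls, and Dnajb9 of female OVA mice (208 and 194) lies below all male OVA arrays (251 to 407).

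**Figure D2:**
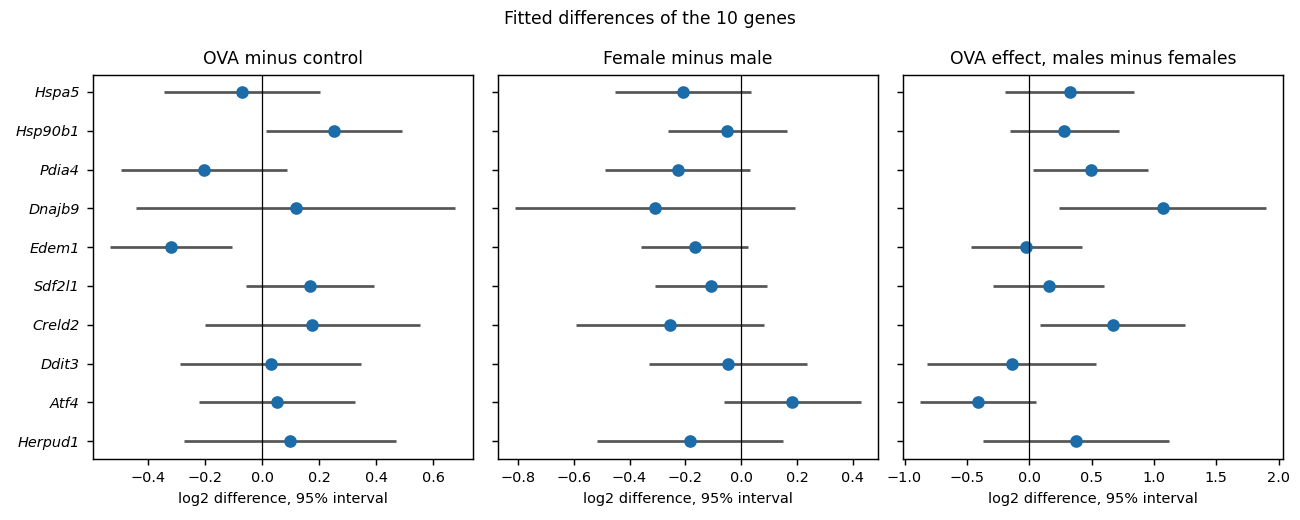
Fitted log2 differences of the 10 genes (points) with 95% intervals (lines) for OVA minus control, female minus male, and the OVA effect in males minus that in females. No gene passed after adjustment in any panel, and the interval of Dnajb9 in the right panel runs from 0.24 to 1.90.

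The values of the OVA mice split by sex. For 6 of the 10 genes, Hspa5, Pdia4, Dnajb9, Edem1, Sdf2l1 and Creld2, all 4 male OVA arrays lay above both female OVA arrays, as for 10.9% of all genes, and for Atf4 all 4 lay below, as for 7.33%. Several of these genes vary together over the 8 arrays, such as Dnajb9 with Creld2 (r = 0.96) and Hspa5 with Pdia4 (0.84). They are therefore not 6 separate observations. Edem1 had r = 0.64 with Pdia4 and 0.33 with Hspa5, but 0.06 with Dnajb9, -0.05 with Creld2 and -0.33 with Sdf2l1. In the additive fit of all 8 arrays 9 of the 10 genes were lower in females (median -0.18). Of all 11988 genes, 6469 were lower in females and 5519 (46%) higher, with a median of -0.015. None passed with limma (adjusted p = 0.901 to 0.971), 0 of the 10 had an unadjusted p under 0.05 (5.32% of all genes), and 12 probe sets (0.0533%) were called in all. The 6 OVA arrays alone gave no call among the 10 either.

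Dnajb9 encodes a BiP partner that also helps degradation, and it had the widest spread of the 10, 2.10-fold between its highest and lowest array. It read 279.7 in the female control and 201 in the male control. Female OVA 2 and 12 had 208 and 194, and male OVA 1, 5, 8 and 13 had 298, 407, 293 and 251. OVA arrays of females therefore lay below their control and those of males above theirs, as for 5.01% of all genes. The male side of this, all 4 male OVA arrays above the male control, held for 5 of the 10 genes and for 23.9% of all. Within females the log2 difference was -0.47 ± 0.26 (SE), within males 0.60 ± 0.24 (SE), and the test of the difference gave 1.07 ± 0.35 (SE; 95% interval 0.24 to 1.90; unadjusted p = 0.0183, adjusted p = 0.533 with limma). Among the 6 OVA arrays, females stood 0.60 lower than males on the log2 scale, at an adjusted p of 0.413 with limma (-0.60).

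Creld2, induced by ER stress and carrying an ERSE in its promoter as printed above, had the same arrangement. Dnajb9 and Creld2 were each read by 1 probe set alone, so neither arrangement could be compared with a second one. Its controls read 204 (female) and 173 (male), female OVA 2 and 12 read 175 and 182, and male OVA 1, 5, 8 and 13 read 249, 285, 235 and 213. The log2 difference was -0.19 ± 0.18 (SE) within females and 0.48 ± 0.17 (SE) within males. Their difference was 0.67 ± 0.25 (SE; 95% interval 0.08 to 1.25; unadjusted p = 0.0304, adjusted p = 0.566 with limma). The OVA arrays of the sexes did not overlap, and the male control lay below all other arrays.

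Pdia4, which forms and reshuffles disulfide bonds, was low in female OVA mice on its 1 probe set past the filter. They read 128 and 121, against 175 in the female control and 159 in the male control, and male OVA 1, 5, 8 and 13 read 153, 178, 159 and 157. Male control 8 and male OVA 8 held exactly the same deposited value. The log2 difference was -0.47 ± 0.14 (SE) within females and 0.02 ± 0.13 (SE) within males, and the difference between them 0.49 ± 0.20 (SE; 95% interval 0.03 to 0.95; unadjusted p = 0.0393, adjusted p = 0.588 with limma).

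Hspa5 followed Pdia4 more loosely. Its controls read 2041 and 2004, female OVA 2 and 12 read 1659 and 1782, and male OVA 1, 5, 8 and 13 read 2026, 2319.7, 2226 and 1906. Both female OVA arrays lay below every other array, while male OVA 13 also lay below the controls. The second probe set of Hspa5 had female OVA values of 439 and 474 and male OVA values of 509 to 719.8, and the dimmest had values that overlapped (125 and 111 against 113 to 142). The OVA effect in males minus that in females was 0.32 ± 0.22 (SE; adjusted p = 0.751 with limma).

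Herpud1, a membrane protein that organises the degradation complex, was set apart by 1 array. Its controls read 484 and 454, female OVA 2 and 12 read 484 and 416, and male OVA 1, 5, 8 and 13 read 505, 682, 564 and 464. Male OVA 5 was the highest array on this probe set and on the other (474, where 4 arrays shared the value 304). The difference between the OVA effects was 0.38 ± 0.32 (SE; adjusted p = 0.810 with limma).

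Atf4 and Ddit3 encode the transcription factors of the PERK arm. On its brightest probe set Atf4 was highest in female OVA mice, at 879.6 and 918, with 742 in the female control and 803 in the male one. Male OVA 1, 5, 8 and 13 read 769.9, 728, 666 and 769.9. Its OVA arrays lay above the control in females and below it in males, as for 7.78% of all genes. For Atf4 the OVA effect in males minus that in females was -0.41 ± 0.20 (SE; 95% interval -0.87 to 0.06; adjusted p = 0.642 with limma). Its second probe set past the filter gave 0.12 ± 0.26 (SE), of opposite sign, and had r = -0.03 with the first over the 8 arrays, so the pattern rests on 1 probe set. Ddit3 read 73.8 and 82.4 in the controls, 84.0 and 76.0 in the female OVA mice and 93.7, 88.1, 65.7 and 77.1 in the male OVA mice, with overlap between the sexes and between treatments.

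The OVA effect in males minus that in females was above 0 for 7 of the 10 genes (median 0.30), beside 5311 of 11988 genes (44.3%). Other pathway lists are counted further below, and several leaned the same way. This contrast called 0 of the 10 genes and 0 of 22518 probe sets (0%), while 3 of the 10 had an unadjusted p under 0.05, beside 850 of 11988 genes (7.09%). Each lone control is assumed in this fit to vary like the other arrays. Enterocyte genes, which are markers of the absorptive epithelium, split between the sexes in their sum but not in their mean log2 score. The 14 measured ones summed to 38409 and 32867 in female OVA mice and to between 41135 and 50707 in male OVA mice. The female and male control had 49566 and 43308. For 6 of 14 all male OVA arrays lay above both female ones. The OVA effect in males minus that in females was above 0 for 11 of them and below 0 for 3. Their score overlapped, at 10.63 and 10.25 in female OVA mice and 10.60 to 11.02 in male OVA mice. Their part in the result was not tested. Plasma cell genes summed to 12132 and 14776 in female OVA mice, to between 16168 and 17492 in male OVA mice and to 15698 and 15884 in controls. Their mean log2 score overlapped as well, at 7.95 and 8.32 in female OVA mice and 8.03 to 8.38 in male OVA mice. Of these genes, 3 of 12 had all male OVA arrays above both female ones. Their part was not tested either.

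**Figure D3:**
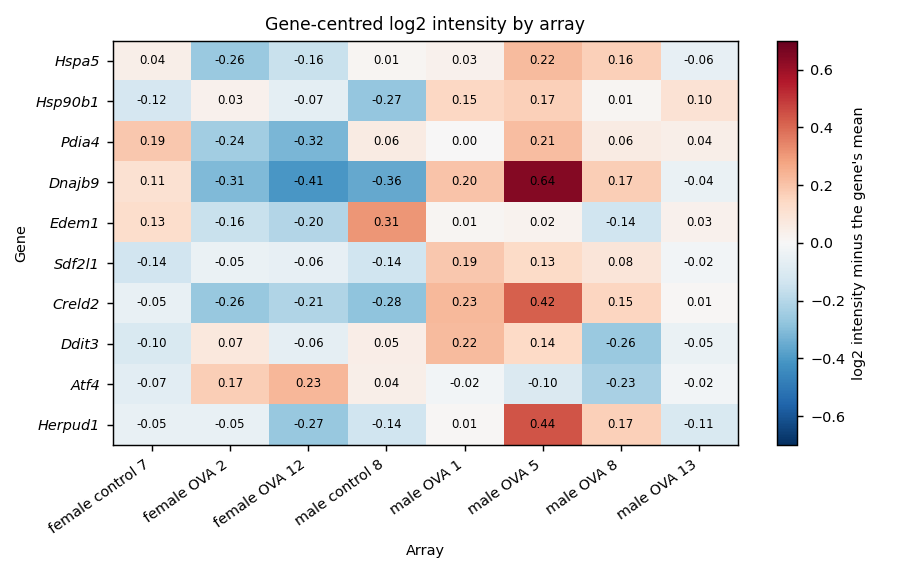
Log2 intensity of each of the 10 genes (rows) on each array (columns) minus the gene's mean over the 8 arrays, with red above and blue below it. Male OVA 5 is highest for 6 genes and female OVA 12 lowest for 4, and Atf4 runs against Hspa5.

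Male OVA 5 was the highest array for 6 of the 10 genes, with gene-centred log2 values of 0.64 for Dnajb9, 0.44 for Herpud1, 0.42 for Creld2 and 0.22 for Hspa5. Female OVA 12 was the lowest for 4, at -0.41 for Dnajb9 and -0.32 for Pdia4. Male OVA 13, with its pancreas genes, was neither highest nor lowest for any of them, at -0.06 for Hspa5 and -0.04 for Dnajb9. Several marker lists also stood at an end of their range in male OVA 5. The 13 cytosolic heat shock genes summed to 7381, against 5219.7 to 6484 on the other arrays, and the enterocyte genes were at their highest (50707). The 8 smooth muscle genes were at their lowest (2558, against 3097 to 4868), and the 7 Paneth cell genes summed to 15792, with only male OVA 8 lower (15479). Their part in the result was not tested. The 3′ to 5′ ratio of beta-actin, a measure of RNA integrity, ran from 1.29 to 1.58 and was 1.37 in male OVA 5. It was 1.43 in the female control and 1.54 in the male control, and of the OVA arrays only male OVA 8 (1.58) lay above either. For Gapdh the controls read 0.896 and 1.00, and only male OVA 8 (0.960) of the OVA arrays lay above the female control. The part of RNA integrity in OVA against control was not tested.

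Relations over the 8 arrays were computed between Hspa5 and the 9 other genes and 4 marker scores, 13 in all, with exact two-sided permutation over 40320 pairings and Benjamini-Hochberg adjustment. Pairings ran across treatment and sex, so differences between the groups can enter these p-values. Hspa5 was positively related to Pdia4, Dnajb9, Creld2 and Herpud1, although none passed by Pearson's r after adjustment. Pdia4 came closest in rank and value together, at r = 0.84 and rho = 0.85 (exact permutation p of 0.00888 for r and 0.0112 for rho, 0.0544 and 0.0729 after adjustment). Dnajb9 followed at r = 0.82 and rho = 0.81 (exact permutation p of 0.0129 and 0.0218, after adjustment 0.0544 and 0.0944). Creld2 had r = 0.79 and rho = 0.71 (exact permutation p of 0.0202 and 0.0576, after adjustment 0.0544 and 0.150), and Herpud1 had r = 0.77 and rho = 0.75 (exact permutation p of 0.0251 and 0.0361, after adjustment 0.0544 and 0.117). Without female OVA 2 and male OVA 5, the 2 arrays farthest from the median of Hspa5, r was 0.71, 0.71, 0.55 and 0.94 for these 4 genes, and over the 6 OVA arrays 0.89, 0.92, 0.94 and 0.83.

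Atf4 ran against Hspa5, with r = -0.87 and rho = -0.91 (exact permutation p of 0.00769 for r and 0.00298 for rho, 0.0544 and 0.0387 after adjustment), the 1 relation of the 13 that passed by either measure. That call did not hold without any 1 of the 8 arrays (rho -0.93 to -0.86, adjusted exact permutation p of 0.0619 to 0.172), nor with quantile normalization (rho = -0.83, adjusted exact permutation p of 0.212). Without the 2 farthest arrays r was -0.93, and among the OVA mice it was -0.88. Taking the mean of all Atf4 probe sets, and of all Hspa5 ones, r was -0.37. The second Atf4 probe set showed r = -0.02 with Hspa5. Hsp90b1 (r = 0.20, rho = 0.24), Edem1 (0.33 and 0.36), Sdf2l1 (0.48 and 0.40) and Ddit3 (-0.09 and -0.07) had adjusted permutation p of 0.376 to 0.955. For Hsp90b1 the choice of probe set mattered, since its second probe set had r = 0.73 with Hspa5.

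Marker scores, the mean log2 intensity over a list, were set against Hspa5 in the same family. The plasma cell score had r = 0.16 (exact permutation p = 0.707, adjusted 0.836; rho = 0.12) and the B cell score r = 0.01 (exact permutation p = 0.974, adjusted 0.974). Both lists name Cd79a, and both scores were highest in male OVA 8 (8.38 and 8.58) and female OVA 12 (8.32 and 8.53). The summed plasma cell intensity was instead lowest in female OVA 2 and 12 (12132 and 14776), as was Hspa5. How that sum relates to Hspa5 was not tested. The Paneth cell score ran against Hspa5 at r = -0.79 and rho = -0.62 (exact permutation p of 0.0221 and 0.115, after adjustment 0.0544 and 0.249). Its r was -0.66 when the 2 farthest arrays were left out and -0.84 over the OVA arrays. The goblet cell score stood at r = -0.48 and rho = -0.52 (exact permutation p of 0.227 and 0.197, after adjustment 0.376 and 0.365).

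Over all 45 pairs of the 10 genes, Pearson's r over the 8 arrays was above 0 for 31, as a description of arrays that share 1 processing. Dnajb9 and Creld2 had the highest value (0.96) and Hspa5 and Atf4 the lowest (-0.87). Leaving out Edem1, Ddit3 and Atf4, a choice made after the values were seen, the 21 pairs of the other 7 genes had r from 0.09 to 0.96. Atf4 was below 0 with 8 of its 9 partners, all but Ddit3.

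Outside the 10, the genes most like their mean pattern (mean of gene-centred log2 values over the 8 arrays) were Thoc7 (r = 0.97), Snx25 (0.97), Nkiras1 (0.97), Sp6 (0.97) and Stt3a (0.96), out of 11988 genes ranked. Stt3a, the catalytic subunit of an oligosaccharyltransferase of the ER, read 356 and 328 in controls, 332 and 321 in female OVA mice and 376, 426, 382 and 357 in male OVA mice. Nkiras1 had the widest range of the 5, from 55.6 in female OVA 12 to 117 in male OVA 5. Vopp1 (-0.97), Stk24 (-0.97) and Tubb4b (-0.96) ran most against it. These values are a description, with no test.

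The rest of the pathway was taken from lists of other genes. In OVA against control 0 genes of these lists passed with limma. The counts stand beside all 11988 genes, of which 6433 (53.7%) lay above 0 and 10.2% had an unadjusted p under 0.05. Several marker lists lay to 1 side in the same contrast, again with 0 called: 14 of 14 B cell genes (median 0.57) and 8 of 8 T cell genes (0.31) lay above 0. Below 0 lay 14 of 14 enterocyte genes (median -0.21), 11 of 12 goblet cell genes (-0.30) and 8 of 8 smooth muscle genes (-0.22). Of the other marker lists, 8 of 12 plasma cell genes (0.21) and 2 of 7 Paneth cell genes (-0.19) lay above 0. The same held for 4 of 9 macrophage and dendritic cell genes (-0.04), 9 of 10 exocrine pancreas genes (0.81) and 3 of 4 neuron and glia genes (0.09). For the pancreas genes male OVA 13 stood apart, with a sum of 11876. The other OVA arrays had 410.5 to 1288, on both sides of the female and male control (1120 and 719). The part of these marker lists in the counts below was not tested. Of 28 other ER chaperones and folding enzymes, 9 lay above 0 and 19 below (median log2 difference -0.03, 2 with an unadjusted p under 0.05). Txndc5, a disulfide isomerase family member, was at -0.28 ± 0.10 (SE), Pdia5 at -0.34 ± 0.13 (SE) and Sel1l3 at -0.36 ± 0.18 (SE). Txndc5 went from 791 ± 74.1 (SD, n = 2) to 659.6 ± 43.9 (SD, n = 6), with an adjusted p of 0.409 from limma. Of 20 measured degradation genes of 21 listed, 14 lay above 0 (median 0.08, 1 with an unadjusted p under 0.05), among them Ufd1 (0.31), which works with the extraction enzyme p97, and Selenok (0.24), while Faf2 was at -0.21.

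Stress sensors and transducers lay below 0 in 12 of 13 measured (median -0.11, 1 with an unadjusted p under 0.05). Atf6 was at -0.28 ± 0.12 (SE), with 1 of its 2 other probe sets of opposite sign, Ern2, the IRE1 form of mucous epithelium, at -0.43 ± 0.23 (SE), and Ern1 at -0.11, with its other probe set of opposite sign. Genes of the PERK arm and amino acid response lay above 0 in 9 and below in 12 of 21 (median -0.03, 3 with an unadjusted p under 0.05). Atf3, a stress-induced transcription factor, was at -0.62 ± 0.21 (SE), going from 48.8 ± 1.24 (SD, n = 2) to 32.1 ± 9.3 (SD, n = 6), the one-carbon enzyme Shmt2 at 0.56 ± 0.21 (SE) and asparagine synthetase, Asns, at -0.30 ± 0.12 (SE). Of 26 measured translocation and ER-Golgi genes of 28 listed, 8 lay above 0 and 18 below (median -0.07, 4 with an unadjusted p under 0.05), with the signal peptidase subunit Sec11c at 0.36, Srp19 of the signal recognition particle at 0.23 and the retrieval receptor Kdelr1 at -0.30. The adjusted p of all genes named from these 5 lists was 0.409 to 0.606 with limma.

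Chaperones of other compartments were counted the same way. Cytosolic heat shock genes lay above 0 in 8 of 13 (median 0.10, 1 with an unadjusted p under 0.05), with Hsp90aa1 at 0.38, Ahsa1 at 0.26, whose other probe set had the opposite sign, and Hspa1a at -0.29. Hspa1a was dim, near the filter intensity of 11.9, at 16.3 and 13.6 in the controls and 9.66 to 12.0 in OVA mice. Mitochondrial chaperones and proteases lay above 0 in 3 of 10 (median -0.04, 1 with an unadjusted p under 0.05), with Trap1 at -0.26, Dnaja3 at -0.16, whose other probe set had the opposite sign, and Hspe1 at 0.13. Immediate early genes lay above 0 in 1 of 9 measured (median -0.08, 1 with an unadjusted p under 0.05), with Fos at -0.65 ± 0.28 (SE), Zfp36 at -0.30 and Jun at -0.32. Fos went from 789.8 ± 18 (SD, n = 2) to 570.4 ± 211 (SD, n = 6).

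The split between male and female OVA arrays was counted in the same lists, set beside 10.9% of all genes above and 7.33% below. All male OVA arrays lay above both female ones for 6 of 13 sensors and transducers, among them Creb3l2 (131 to 171 against 85.4 and 104), Ern1, Atf6, Mbtps1, Creb3l3 and Nfe2l2. The same held for 6 of 26 translocation and traffic genes, including the coat subunit Sec24d (317 to 465 against 189.8 and 268), for 3 of 28 chaperones (P4hb, Hyou1 and Creld1), for 3 of 20 degradation genes (Sel1l, Derl3 and Os9) and for 2 of 21 genes of the PERK arm (Atf5 and Cebpb). These genes were named after their values were seen. For 2 of 13 cytosolic heat shock genes, 2 of 10 mitochondrial chaperones and 1 of 9 immediate early genes the male OVA arrays lay above as well. The opposite arrangement held for 1 gene each of the chaperone (Fkbp11), degradation (Ube2j2), traffic (Kdelr3), PERK arm (Chac1) and heat shock (Hspb1) lists. It held for 0 of the sensors, the mitochondrial chaperones and the immediate early genes. The male minus female OVA effect was above 0 for 8 of 13 sensors and 11 of 21 PERK arm genes. So it was for 19 of 28 chaperones, 13 of 20 degradation genes and 23 of 26 traffic genes. Heat shock, mitochondrial and immediate early genes had 7 of 13, 7 of 10 and 3 of 9 (44.3% of all genes). Lower in females were 12 sensors, 9 PERK arm genes, 17 chaperones, 11 degradation and 19 traffic genes. So were 10 heat shock, 5 mitochondrial and 7 immediate early genes (6469 of all 11988).

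**Figure D4:**
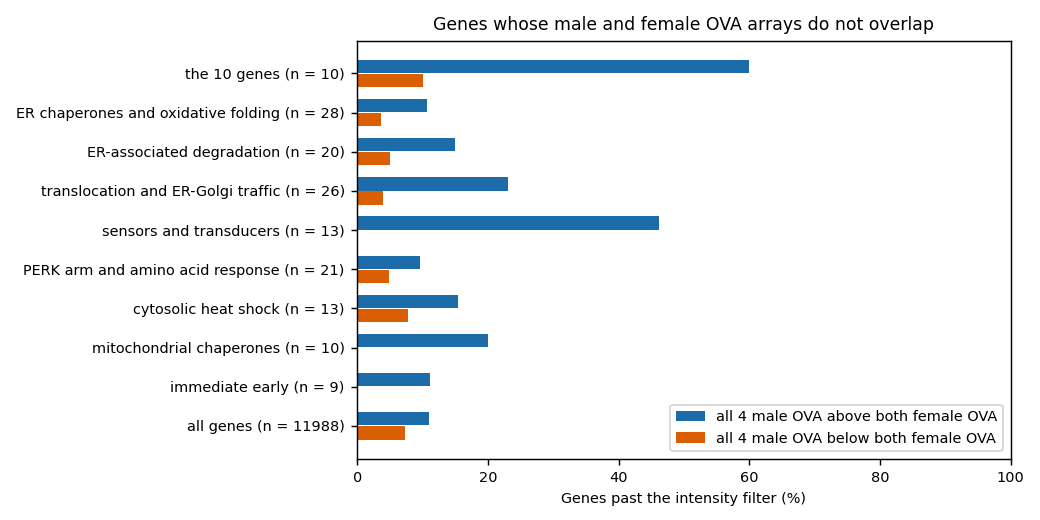
Share of measured genes (horizontal axis, percent) for which all 4 male OVA arrays lay above (blue) or below (orange) both female OVA arrays, by list, with the number of measured genes in brackets. The 10 genes have 6 above and 1 below, and all 11988 genes have 10.9% above and 7.33% below.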

How the data were processed

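Total RNA of 8 Peyer's patch samples was read on single-colour Affymetrix arrays, and the values are probe set intensities that the authors deposited on a linear scale, from 1.86 to 14749. MAS5 is named in the submitters' processing notes; no settings were stated. Of 45101 probe sets, 23229 (51.5%), and 5 of the 17 tested here, had the very same value on at least 2 arrays, so how probes were summarised was not settled. The array annotation gave 1 symbol to 34958 probe sets, several to 932 and none to 9211, and 34754 gene identifiers matched RefSeq with 0 symbols updated.

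Intensities were taken to log2(value + 4.88), the 25th percentile of all values, without further scaling. After leaving out 64 control probe sets, the 22518 above the median were tested with lmFit and eBayes of limma 3.58.1 (R 4.3.3), two-sided, Benjamini-Hochberg adjusted over all of them at a threshold of 0.05. OVA and sex came from 1 additive fit (5 residual degrees of freedom), the difference of OVA effects from 4 group means (4 residual degrees of freedom). Methods were tested on simulated data. Nothing states separate litters or cages. Relations used exact permutation (Python 3.11.15, NumPy 2.4.6, SciPy 1.17.1, pandas 2.3.3, figures with matplotlib 3.10.9). The 10 genes and all lists were chosen with earlier results of these data known. Named were all 10, the 3 of smallest p in each other pathway list, and the 5 most and 3 least similar genes. Genes named for the split between male and female OVA arrays fall outside this rule and were chosen after their values were seen. Alternatives were other pseudocounts (1 or 11.9), scalings, filters, variance models, array weights, probe set averaging, subsets, and leaving out each array.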

Additional observations from a re-analysis of the deposited data

Results flagged for a closer look

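Dnajb9 and Creld2 were marked because every male OVA array lay above the male control and every female OVA array below the female control, and Atf4 because of the reverse. The log2 difference of the OVA effects, males minus females, was 1.07 for Dnajb9 and 0.67 for Creld2, and -0.41 for Atf4, with adjusted p of 0.533, 0.566 and 0.642 in limma, so none passed as a difference. The first arrangement held for 5.01% of all genes and the reverse for 7.78%.

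In Edem1, male OVA 8 (338) stood far below the other 3 male OVA arrays (376 to 381), the gap being 0.901 of the group's range. This was 1 of 20 groups examined, and chance marks about 1 in 20.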

How the results depend on the processing

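No paired analysis was possible because the groups compared share fewer than 2 replicate numbers. None of the 10 genes passed in any of the 3 comparisons under any alternative run, each array left out included. Counts over all probe sets were 0 throughout for OVA against control and for the difference of OVA effects. For female against male the main count of 12 became 4 with the filter at the 75th percentile, 5 with probe sets averaged by gene, and 9 to 14 when arrays were left out. These tested fewer features in the first 2 cases.

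Directions in OVA against control that turned were, within males, Hspa5 (0.077), Pdia4 (0.021), Ddit3 (-0.033) and Atf4 (-0.13), and within females Dnajb9 (-0.47), Creld2 (-0.19) and Herpud1 (-0.11), where a lone control decides. The mean of all probe sets gave 0.0085 for Hspa5 and quantile normalization -0.0022 for Ddit3. Over arrays left out, the ranges were -0.25 to 0.077 for Hspa5, -0.47 to 0.021 for Pdia4, -0.47 to 0.60 for Dnajb9, -0.19 to 0.48 for Creld2, -0.033 to 0.11 for Ddit3, -0.13 to 0.28 for Atf4, -0.11 to 0.27 for Herpud1, 0.10 to 0.38 for Hsp90b1, 0.083 to 0.24 for Sdf2l1 and -0.33 to -0.30 for Edem1. For females minus males Hsp90b1 ran from -0.13 to 0.0098. The difference of OVA effects for Edem1 was 0.030 with median centring, 0.0020 with array weights and -0.047 to 0.017 with arrays left out.

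Of the 13 relations of Hspa5, 0 passed by r, but 6 did with median centring, 5 with the mean of all probe sets and 0 to 1 when arrays were left out (1 without female OVA 2); the cause was not tested. With the mean of all probe sets r with Atf4 was -0.37. Quantile normalization gave r = -0.071 with Hsp90b1. With arrays left out r ran from -0.084 to 0.34 for Hsp90b1, -0.39 to 0.31 for Ddit3, -0.17 to 0.46 for the plasma cell score and -0.37 to 0.33 for the B cell score. By rho 1 relation (Atf4) passed, and 0 did with quantile normalization, with the mean of all probe sets, among the 6 OVA arrays, without the 2 farthest arrays, and without each array in turn (0 to 0), male OVA 13 with its pancreas genes included; fewer arrays allow fewer pairings in the last 3 cases.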
